A study of Danio rerio with 3 samples.

Results

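The genes described here build and check proteins in the endoplasmic reticulum. They are 50 listed zebrafish genes found by their symbol in the array's probe table, grouped here by role. Of the 50, 46 had a probe and 37 had a ratio in all 3 samples, among 5904 genes that did. Another 2, edem1 and srp9, had a value in 2 of the samples. A probe but no value was found for 7 (hyou1, dnajb9b, p4hb, sel1l, atf6, ern1 and eif2ak3), and pdia3, sec61a1, sec61b and rpn2 had no probe under these symbols.

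Whole zebrafish embryos exposed to Aroclor 1254, a commercial mixture of polychlorinated biphenyls, were compared with control embryos on 2-colour oligonucleotide arrays. The exposed embryos received 71.9 mg/L from 24 hpf (hours post fertilization) for 24 hours and were collected at 48 hpf, and the controls stayed in fish medium at 28.5 °C. No strain or genotype is stated. There were 3 samples, labelled biological replicates, and each sets exposed against control embryos in 1 log2 ratio. Nothing says which clutches or pools they came from, so the p-values measure only the spread between these samples.

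Proteins bound for the cell surface, the extracellular space or the secretory organelles enter the endoplasmic reticulum through the Sec61 channel, guided there by the signal recognition particle. Inside, the signal peptide is cut off, sugar chains are attached, and chaperones and disulfide isomerases fold the chain. Proteins that stay misfolded are sent out for degradation, and escaped residents are returned by KDEL receptors. When unfolded protein builds up, the sensors Ire1, Perk and Atf6 start the unfolded protein response, which raises chaperone genes such as hspa5. In the embryo the demand is high in cells that secrete collagen, plasma proteins, yolk lipoproteins or hatching enzymes.

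The sources used here do not state which condition is the numerator of the ratio, and dyes were swapped in the design. Signs are therefore those of the deposited values, and "negative" describes the value and not the exposure. For orientation, cyp1a, the cytochrome P450 gene that dioxin-like biphenyls are known to induce through the aryl hydrocarbon receptor, was positive at 7.07, 8.61 and 8.02 in replicates 1, 2 and 3. Its adjusted p was 0.00086 with limma's moderated statistic and 0.334 with an ordinary one. A negative member thus has the opposite sign to cyp1a. Folds assume that the values are log2, since a natural logarithm could not be told apart from it.

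Gene names rest on a match of array rows to probes by grid position that was inferred from these values. With the members left out, the mean ratios of 2156 pairs of rows of 1 gene had a Pearson r of 0.759 under this match, against 0.0255 over 440 pairs with the row numbers as given (rows are not independent replicates). The match came from these same values, so this r is no independent check of it. For the members r was 0.698 over 13 pairs. Having a value in all samples correlated between rows at -0.128 over 29 member pairs, against 0.389 over 8568 pairs of other genes. Values were present for 54 of 70 member probes (77.1%), against 45.4% of all probes with a gene. The standard deviation of the ratios over the 10200 rows measured in all samples was 0.82, 0.97 and 0.62 in replicates 1, 2 and 3, with medians between -0.045 and 0.011.

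The folding genes had the lowest ratios among the members. All 12 measured chaperones, lectin chaperones and disulfide isomerases had a negative mean, as did 52.7% of all genes, with a median of -1.18 on the log2 scale, against a median of -0.03 over all 5904 genes. Of these 12, 11 were negative in all 3 samples, where 23.1% of all genes were. In limma, 9 of them were negative and 0 positive at an unadjusted p of 0.05, where 8.43% of all genes were negative and 7.67% positive. The members and lists were chosen with earlier results of these data known. These and the later counts therefore describe the chosen genes and do not test them. None of the 37 measured members passed an adjusted p of 0.05 over all genes in limma (Benjamini-Hochberg), a threshold that 0.0169% of all genes (1 gene, cyp1a) passed. In whole embryos, a difference in the number of cells of a type and one in RNA per cell cannot be told apart, whichever condition is the numerator.

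The luminal chaperones were the most negative group. The gene manf, which encodes a secreted factor of the stressed endoplasmic reticulum that binds the chaperone BiP, stood at -2.66, -2.28 and -1.17 in replicates 1, 2 and 3. Its mean was -2.04 ± 0.77 (SD, n = 3; 4.10-fold; adjusted p = 0.119, limma), the 11th lowest moderated statistic of 5904 genes. All 3 samples were thus well below 0, and replicate 3 was the nearest to it. Its adjusted p was 0.0308 after quantile normalization and 0.0279 after scaling the samples to equal spread (limma), so its call depends on the scaling. Under these scalings 28 and 43 of all 5904 genes passed, against 1 with the values as deposited.

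The chaperone BiP, the main Hsp70 of the endoplasmic reticulum, is encoded by hspa5, which stood at -1.73, -1.56 and -0.77 in replicates 1, 2 and 3. The mean was -1.35 ± 0.51 (SD, n = 3; 2.56-fold; adjusted p = 0.163, limma), with a 95% interval from -2.03 to -0.68 in the same model. Replicates 1 and 2 lay close together and replicate 3 was nearer to 0.

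BiP works with J-domain co-chaperones. The gene dnajc3a, whose mammalian counterpart P58IPK is a co-chaperone of BiP, stood at -2.10, -0.76 and -1.22 in replicates 1, 2 and 3 (mean -1.36 ± 0.68, SD, n = 3; adjusted p = 0.177, limma). For dnajb11, which encodes another luminal J protein, the ratios were -1.49, -2.45 and -0.49 in the same order (mean -1.48 ± 0.98, SD, n = 3; adjusted p = 0.195, limma). These co-chaperones differed in which sample was lowest, replicate 1 for dnajc3a and replicate 2 for dnajb11.

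The endoplasmic reticulum Hsp90, known as Grp94 and encoded by hsp90b1, had ratios of -1.11, -2.31 and -0.41 in replicates 1, 2 and 3 (mean -1.27 ± 0.96, SD, n = 3; adjusted p = 0.219, limma). The gene sdf2l1, whose product binds BiP with Dnajb11 in mammals, had the smallest mean of this group, -0.80 ± 0.62 (SD, n = 3; adjusted p = 0.278, limma). Both were negative in every sample. By size, manf, hspa5 and dnajc3a were at least 1.5-fold negative in each sample, as were 2.71% of all genes, and they were the only members that were.

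Disulfide isomerases, which form and shuffle the bonds between cysteines, were close to the luminal chaperones. The gene creld2, which encodes a stress-induced luminal protein placed here with the isomerases, stood at -1.94, -2.40 and -0.23 in replicates 1, 2 and 3, with a mean of -1.52 ± 1.14 (SD, n = 3; adjusted p = 0.206, limma). For pdia4 the ratios were -1.46, -1.58 and -0.23, with a mean of -1.09 ± 0.75, and for pdia6 they were -0.99, -1.74 and -0.34, with a mean of -1.02 ± 0.70 (SD, n = 3 each; adjusted p = 0.219 and 0.223, limma). In these 3 genes replicate 3 was within 0.34 of 0 and the other replicates were far below it. For pdia4 the value in replicate 3 is an average of rows at 0.32 and -0.77.

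Lectin chaperones hold glycoproteins by their sugar chains, in the lumen as calreticulin and in the membrane as calnexin. They were nearer to 0 than the luminal chaperones. Calreticulin, encoded by calr, stood at -0.66, -1.21 and -0.10 in replicates 1, 2 and 3 (mean -0.66 ± 0.55, SD, n = 3; adjusted p = 0.324, limma). Its relative calr3b stood at -0.25, -0.80 and -0.11 (mean -0.38 ± 0.37; adjusted p = 0.474), and calnexin, encoded by canx, at 0.02, -1.46 and -0.16 (mean -0.53 ± 0.81, SD, n = 3 each; adjusted p = 0.464, limma). Replicate 2 held the lowest value of each, and the median of these 3 genes was -0.53 with it and -0.18 without it. That -0.18 is the value of calr3b, whose ratio in replicate 1 includes a row measured in that sample alone, at 0.59. The other rows of calr3b stood at -0.53 and -0.80 in replicate 1. From the rows measured in all samples its mean over the 3 samples was -0.52, against -0.38 with that row included. The -0.18 also includes that row and was not recomputed without it.

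**Figure D1:**
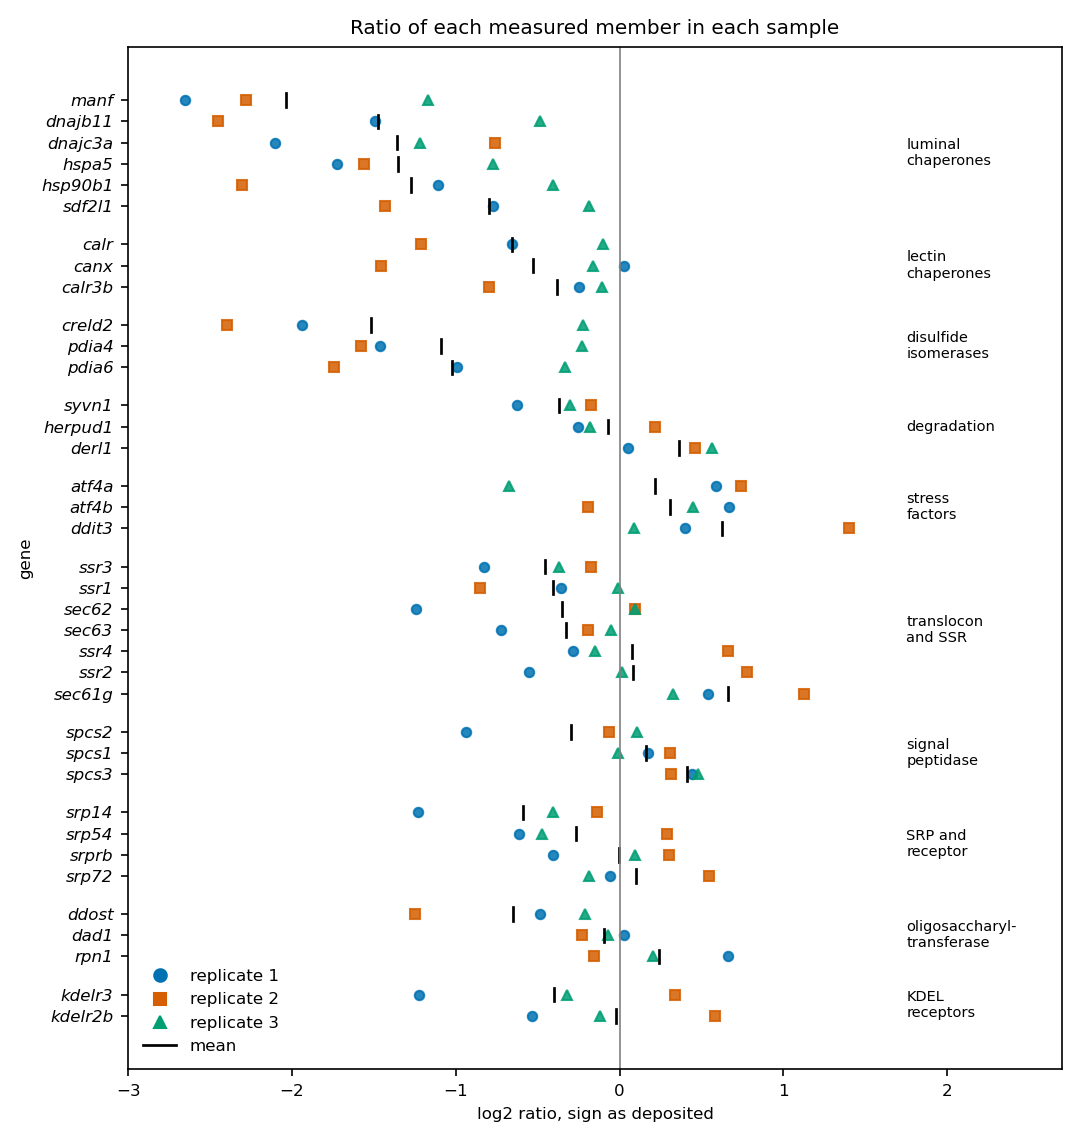
Log2 ratio (x axis, sign as deposited) of the 37 members with a value in all 3 samples, 1 line per gene and grouped by role. Circles, squares and triangles are replicates 1, 2 and 3 and the bar is their mean. SSR is the signal sequence receptor and SRP the signal recognition particle. The folding genes at the top have means from -2.04 to -0.38, and the others from -0.65 to 0.66.

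The 3 degradation members measured in all samples were not shifted one way. The product of syvn1, the ubiquitin ligase Hrd1 that marks misfolded proteins at the membrane, had ratios of -0.62, -0.17 and -0.30 in replicates 1, 2 and 3 (mean -0.37 ± 0.23, SD, n = 3; adjusted p = 0.468, limma). The gene herpud1, which encodes a Hrd1 partner, stood at -0.26, 0.22 and -0.18 (mean -0.07 ± 0.25; adjusted p = 0.899), and derl1, which encodes a subunit of the exit channel, at 0.05, 0.46 and 0.57 (mean 0.36 ± 0.27, SD, n = 3 each; adjusted p = 0.481, limma). Edem1, which helps sort glycoproteins for degradation, was measured in replicates 1 and 3 at -0.45 and 0.44. The 95% interval of herpud1 ran from -0.66 to 0.52 in the limma model.

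Of the stress sensors and transcription factors only atf4a, atf4b and ddit3 were measured. Atf4 is the factor translated when Perk is active, and ddit3 encodes Chop, its target in prolonged stress. For ddit3 the ratios were 0.40, 1.40 and 0.09 in replicates 1, 2 and 3 (mean 0.63 ± 0.69, SD, n = 3; adjusted p = 0.37, limma), the sign opposite to the chaperones. The ratios of atf4a were 0.59, 0.74 and -0.68 (mean 0.22 ± 0.78; adjusted p = 0.76) and those of atf4b 0.66, -0.19 and 0.45 (mean 0.31 ± 0.44, SD, n = 3 each; adjusted p = 0.581, limma). Both atf4 genes took 2 signs over the samples, and the 95% interval of ddit3 included 0 (-0.14 to 1.39). The group median of 0.31 was 0.66 without replicate 3 and 0.13 without replicate 1. The sensor genes atf6, ern1 (Ire1) and eif2ak3 (Perk) had no value on any of their probes.

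The machinery of entry, made up of the translocon, the signal recognition particle, signal peptidase and oligosaccharyltransferase, had a median of -0.09 over 17 measured genes. Its sign changed when replicate 1 was left out (0.025), and it lay at -0.24 when replicate 2 was and at -0.10 when replicate 3 was. None of the 17 was negative at an unadjusted limma p of 0.05, and sec61g was positive, against 8.43% and 7.67% of all genes. By sign, 5 of the 17 were negative and 2 positive in all samples, against 23.1% and 19.7% of all genes.

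At the translocon, sec61g, the small gamma subunit of the Sec61 channel, stood at 0.54, 1.12 and 0.33 in replicates 1, 2 and 3 (mean 0.66 ± 0.41, SD, n = 3; 1.58-fold; adjusted p = 0.3, limma). Sec62 and Sec63 assist the channel. Their genes had means of -0.35 ± 0.77 and -0.33 ± 0.35 (SD, n = 3 each), and replicate 1 was the lowest in both, at -1.24 and -0.73.

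The signal sequence receptor, a complex beside the channel, was split. Its gamma subunit gene ssr3 stood at -0.83, -0.17 and -0.37 in replicates 1, 2 and 3 (mean -0.46 ± 0.34, SD, n = 3; adjusted p = 0.406, limma) and ssr1 at -0.36, -0.85 and -0.01 (mean -0.41 ± 0.42, SD, n = 3; adjusted p = 0.468, limma). In replicate 3 the value of ssr1 is an average of rows at -0.58, 0.18 and 0.37, and the last of these rows had no value in replicate 2. The other subunits, ssr2 and ssr4, had means of 0.08 ± 0.67 and 0.08 ± 0.51 (SD, n = 3 each) and were negative in replicate 1 and positive in replicate 2. The median of the 7 translocon and signal sequence receptor genes, -0.33, was 0.09 without replicate 1.

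The signal recognition particle binds the emerging signal peptide. Its srp14 gene, for a subunit of the Alu domain, stood at -1.23, -0.14 and -0.41 in replicates 1, 2 and 3 (mean -0.59 ± 0.57, SD, n = 3; adjusted p = 0.364, limma). For srp54, which encodes the subunit that holds the signal peptide, they were -0.62, 0.29 and -0.48 (mean -0.27 ± 0.49; adjusted p = 0.645), and srp72 and the receptor subunit gene srprb had means of 0.10 ± 0.39 and -0.00 ± 0.37 (SD, n = 3 each; adjusted p = 0.864 and 0.994, limma). Replicate 2 was the highest sample in these 4 genes. The partner of Srp14, srp9, was measured in replicates 1 and 3 at -0.88 and 0.28.

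Signal peptidase and oligosaccharyltransferase genes lay on either side of 0. Among the signal peptidase subunits spcs3 was the most even, at 0.44, 0.31 and 0.48 in replicates 1, 2 and 3 (mean 0.41 ± 0.09, SD, n = 3; adjusted p = 0.413, limma). For spcs1 the mean was 0.16 ± 0.16, and for spcs2 it was -0.30 ± 0.56, with replicate 1 at -0.94 (SD, n = 3 each; adjusted p = 0.751 and 0.619, limma). Of the oligosaccharyltransferase subunits, ddost stood at -0.49, -1.25 and -0.21 (mean -0.65 ± 0.54; adjusted p = 0.324), while dad1 had a mean of -0.09 ± 0.13 and rpn1 one of 0.24 ± 0.41 (SD, n = 3 each; adjusted p = 0.859 and 0.669, limma). Only ddost of these 3 was negative in every sample.

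The KDEL receptors carry luminal residents back from the Golgi. The ratios of kdelr3 were -1.22, 0.34 and -0.32 in replicates 1, 2 and 3, and those of kdelr2b -0.53, 0.58 and -0.12. Their means were -0.40 ± 0.78 and -0.02 ± 0.56 (SD, n = 3 each; adjusted p = 0.565 and 0.973, limma). Both were negative in replicates 1 and 3 and positive in replicate 2, where the median of the luminal chaperones was lowest. Of those chaperones, manf, hspa5 and dnajc3a were themselves lowest in replicate 1.

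The order of the role groups was compared within each sample, since the members share samples and are not replicates of each other. The median of the 12 folding genes was -1.29, -1.57 and -0.28 in replicates 1, 2 and 3, and that of the 17 entry genes -0.41, 0.09 and -0.01. The difference, folding minus entry, was -0.88, -1.66 and -0.27 in replicates 1, 2 and 3, with a mean of -0.94 ± 0.70 (SD, n = 3). The sign was the same in each sample, and the size in replicate 3 was much smaller than in the others. With 3 samples the spread of this difference was close to its mean, and no p is given for a score over chosen genes.

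Between the narrower groups, disulfide isomerases were below degradation genes in each sample, with differences of -1.21, -1.96 and -0.05, so the groups nearly met in replicate 3. Luminal chaperones were below lectin chaperones in each sample too, with differences of -1.36, -0.71 and -0.52. All chaperones together (9 genes) did not differ from the 3 disulfide isomerases in one direction: the difference of medians was 0.36, 0.29 and -0.18 in replicates 1, 2 and 3.

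**Figure D2:**
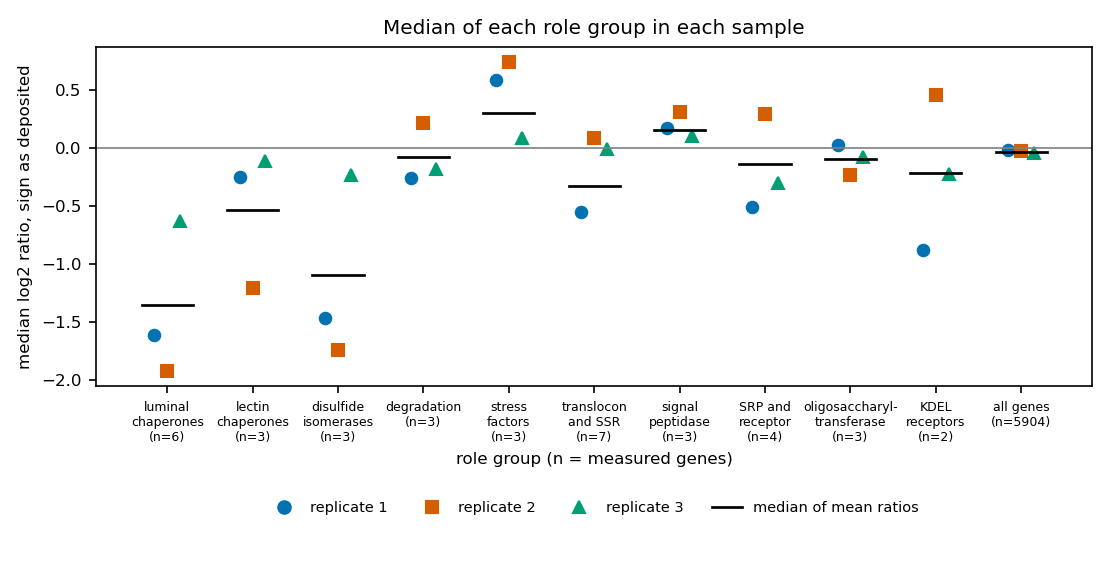
Median log2 ratio (y axis, sign as deposited) of each role group of members in each sample, with all 5904 genes at the right. Circles, squares and triangles are replicates 1, 2 and 3, the bar is the median of the genes' mean ratios, and n is the number of measured genes. Luminal chaperones lie at -1.61, -1.92 and -0.63, and all genes stay within 0.05 of 0.

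Replicates 1 and 2 differed in how far the groups lay apart. In replicate 1 the entry genes, with a median of -0.41, were on the same side as the folding genes, whereas in replicate 2 they were at 0.09. Across the 37 members, which are not independent, replicate 1 had a Pearson r of 0.642 with replicate 2 and 0.707 with replicate 3, and replicate 2 one of 0.463 with replicate 3. Over all 5904 genes it was 0.289, 0.469 and 0.301 in the same order. The members share the same samples, and within the 12 folding genes alone r was 0.415, 0.792 and 0.055.

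Where the array held several rows of a member, they could be set beside each other. For hspa5 the rows had means of -1.41 ± 0.48 and -1.30 ± 0.55, and for dnajb11 they had -1.70 ± 0.84 and -1.25 ± 1.12 (SD, n = 3 each). Of 13 members with several measured rows, 11 had rows of one mean sign, or 84.6%, against 75.2% of all such genes. The exceptions were derl1, whose rows stood at 0.92 ± 0.62 and -0.20 ± 0.34, and dad1, at 0.15 ± 0.20 and -0.34 ± 0.07 (SD, n = 3 each). The values of manf, dnajc3a, sdf2l1, canx and creld2 rest on 1 row each.

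By row, 13 of 50 member rows were negative and 2 positive at an unadjusted limma p of 0.05, against 8.87% and 9.98% of all rows. None passed an adjusted p of 0.05, which 0.0686% of all rows did. The lowest adjusted p of a member row was 0.0951, for manf (limma).

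**Figure D3:**
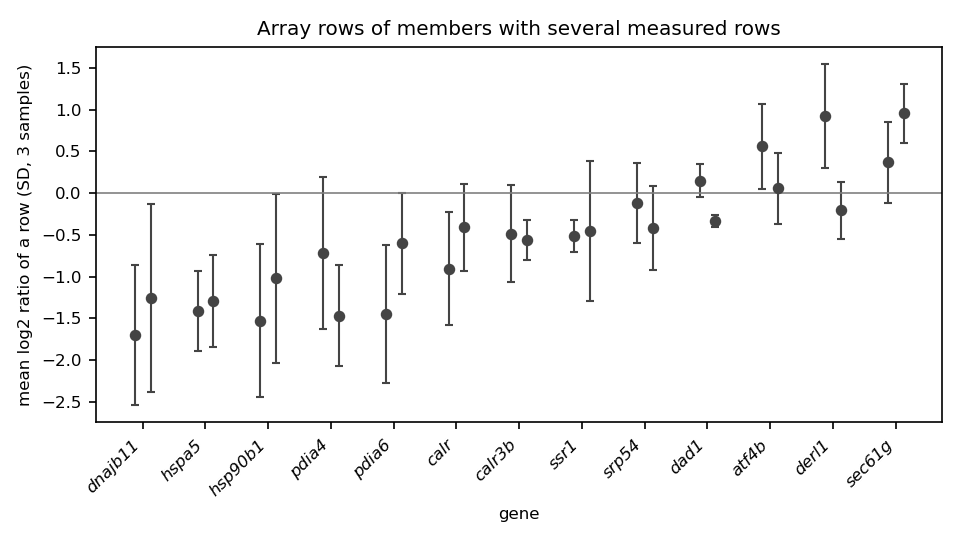
Mean log2 ratio (y axis, sign as deposited) of every array row measured in all samples, for the 13 members with several such rows. Points are rows and bars the SD over 3 samples. Both rows lie below 0 for dnajb11, hspa5, hsp90b1, pdia4, pdia6, calr, calr3b, srp54 and ssr1, and above 0 for sec61g and atf4b. The rows of dad1 and derl1 lie on opposite sides of 0.

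Beyond the members, 229 other genes of the endoplasmic reticulum and early secretory pathway were listed by role, and 123 were measured in all samples. Their median was -0.25, with 19 negative and 7 positive at an unadjusted limma p of 0.05 (8.43% and 7.67% of all genes) and none past an adjusted p of 0.05. The replicate medians were -0.43, -0.15 and -0.04 in replicates 1, 2 and 3.

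Other chaperones and isomerases held the widest spread. Their median was -0.32 over 30 genes. At the unadjusted p 5 were negative and 4 positive, against 8.43% and 7.67% of all genes. The gene p4ha1b, a catalytic subunit of collagen prolyl 4-hydroxylase, stood at 3.18, 3.05 and 1.5 in replicates 1, 2 and 3 (mean 2.58 ± 0.93, SD, n = 3; 5.96-fold; adjusted p = 0.116, limma). The oxidase gene ero1a, which keeps disulfide isomerases oxidized, stood at 1.56, 2.84 and 1.37 (mean 1.92 ± 0.80; adjusted p = 0.124), and p4ha2, another prolyl hydroxylase subunit, at 1.53, 2.15 and 0.96 (mean 1.55 ± 0.59, SD, n = 3 each; adjusted p = 0.154, limma).

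The adjusted p of p4ha1b, ero1a and p4ha2 was 0.0308, 0.0443 and 0.0562 in limma after quantile normalization, where 28 of 5904 genes passed 0.05, and 0.0199, 0.0279 and 0.0475 after scaling to equal spread, where 43 did. Other genes of the list that act on collagen or on disulfides had means of either sign. Among the negative ones were serpinh1b, a collagen chaperone gene, at -0.60, plod3, a lysyl hydroxylase gene, at -0.45 and ero1b at -0.21. Positive in every sample was plod1a, another lysyl hydroxylase gene, at 1.15, 1.58 and 0.44 in replicates 1, 2 and 3. Its mean was 1.06 ± 0.58 (SD, n = 3, adjusted p = 0.204, limma), and it was named after its value was seen. The genes p4ha1b, ero1a and p4ha2 were positive in every sample. The measured disulfide isomerase members were negative in every sample by the average of their rows, although 1 row of pdia4 was positive in replicate 3. The isomerase gene pdia5, named after its value was seen, stood at -1.62, -1.71 and -0.45 in replicates 1, 2 and 3 (mean -1.26 ± 0.70, SD, n = 3; adjusted p = 0.195, limma). Other genes of the isomerase and thioredoxin family in the list, likewise named after their values were seen, had means of either sign. These means were -0.84 for txndc12, -0.65 for pdia8, -0.24 for dnajc10, -0.23 for erp44, 0.11 for pdia7 and 0.27 for txndc5. Of these, txndc5 was also positive in every sample, at 0.08, 0.26 and 0.48 in replicates 1, 2 and 3. Negative in every sample were txndc12 and pdia8.

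Among other degradation genes the median was -0.37 over 9 genes. Of these, 7 had a negative mean and 6 were negative in all samples, against 52.7% and 23.1% of all genes. The median was near those of other chaperones and isomerases (-0.32) and other translocation and modification genes (-0.30). The gap between folding members and degradation or entry members was thus not seen between these lists. At the unadjusted p 3 were negative and 1 positive, against 8.43% and 7.67% of all genes. The signal peptide peptidase gene hm13 stood at -2.15, -1.49 and -0.73 in replicates 1, 2 and 3 (mean -1.46 ± 0.71, SD, n = 3; adjusted p = 0.176, limma). A second derlin gene, derl2, stood at -1.62, -1.02 and -0.36 (mean -1.0 ± 0.63; adjusted p = 0.22), and selenos, which encodes a selenoprotein of the exit complex, at 0.52, 0.61 and 1.33 (mean 0.82 ± 0.44, SD, n = 3 each; adjusted p = 0.237, limma). Whereas derl2 was negative in each sample, the average of the rows of derl1 was positive in each. Those rows disagreed, and 1 of them stood at -0.16, -0.57 and 0.11 in replicates 1, 2 and 3. The difference between derl1 and derl2 was not tested.

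Other stress response genes had a median of 0.27 over 15 genes. At the unadjusted p 0 were negative, against 8.43% of all genes, and 1 was positive, against 7.67%. That gene was eif2s1b, for the initiation factor subunit that Perk phosphorylates (mean 0.57 ± 0.13; adjusted p = 0.31). Next by statistic were mbtps1, for the protease that cuts Atf6 (mean 0.59 ± 0.32; adjusted p = 0.32), and psat1, for an enzyme of serine synthesis (mean 0.68 ± 0.68, SD, n = 3 each; adjusted p = 0.338, limma). The transcript of xbp1, the target of Ire1 splicing, had a mean of -0.00 ± 0.66 (SD, n = 3; adjusted p = 0.999, limma), chosen after its value was seen. The probes used here are not known to tell its spliced and unspliced forms apart.

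In the list of other translocation and modification genes the median was -0.30 over 25 genes. At the unadjusted p 4 were negative and 0 positive, against 8.43% and 7.67% of all genes. The signal recognition particle receptor alpha subunit, encoded by srpra, stood at -1.75, -1.98 and -1.07 in replicates 1, 2 and 3 (mean -1.60 ± 0.47, SD, n = 3; 3.03-fold; adjusted p = 0.124, against 0.045 after quantile normalization and 0.042 after scaling to equal spread, limma). The channel subunit gene sec61a1b stood at -1.53, -1.06 and -0.66 (mean -1.08 ± 0.43; adjusted p = 0.193), and krtcap2, for an oligosaccharyltransferase subunit, at -0.93, -1.07 and -0.38 (mean -0.79 ± 0.37, SD, n = 3 each; adjusted p = 0.237, limma). These values sit beside members of the same complexes at 0.66 for sec61g and -0.00 for srprb. The oligosaccharyltransferase members beside krtcap2 stood at -0.65 for ddost, -0.09 for dad1 and 0.24 for rpn1. These differences were not tested.

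Vesicle transport between the endoplasmic reticulum and the Golgi had a median of -0.18 over 44 genes. At the unadjusted p 7 were negative and 1 positive, against 8.43% and 7.67% of all genes. The cargo adaptor gene tmed3 had a mean of -0.93 ± 0.50, the COPI coat gene copa one of -0.81 ± 0.33 and arcn1b, for another COPI subunit, one of -0.84 ± 0.39 (SD, n = 3 each; adjusted p = 0.219, 0.223 and 0.223, limma). Each was negative in every sample.

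**Figure D4:**
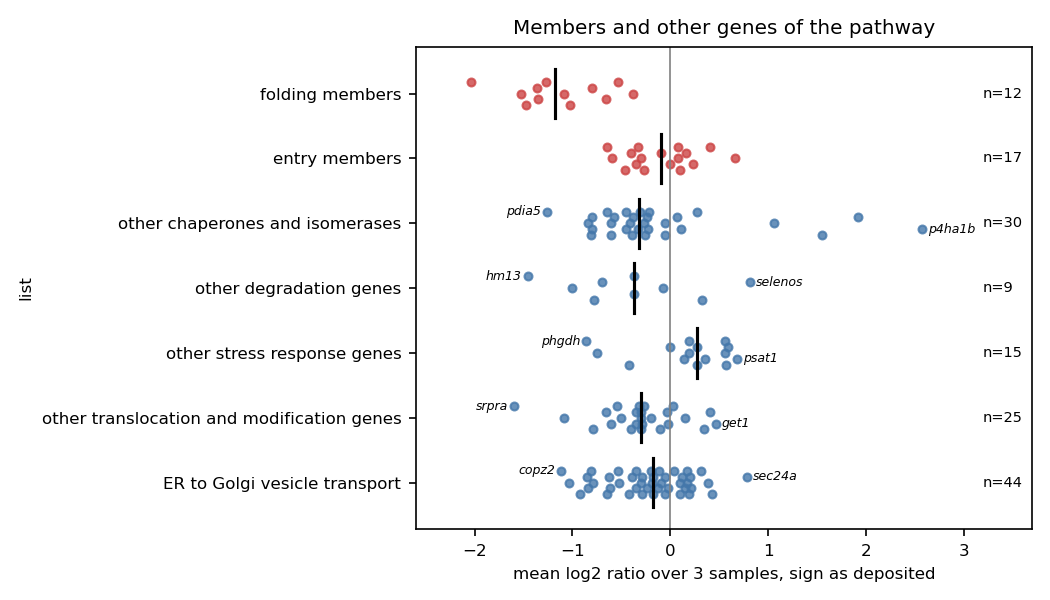
Mean log2 ratio over 3 samples (x axis, sign as deposited) of each measured folding and entry member (red) and of each gene in 5 lists of other pathway genes (blue). Each point is a gene, bars are list medians, n is the number of measured genes, and the lowest and highest gene of each blue list is named. The folding members have a median of -1.18, and the blue lists have medians from -0.37 to 0.27.

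Markers of secretory tissues also had ratios away from 0, and none passed an adjusted p of 0.05 in limma. The hatching gland enzyme genes he1.1 and he1.2, near-identical copies whose probes may share signal, stood at 2.73, 4.05 and -0.15 and at 2.34, 3.83 and -0.16 in replicates 1, 2 and 3. With cd63, at a mean of 0.48, they were the only 3 of 11 listed markers of that gland measured in all samples. Of 16 liver markers 7 were measured, with replicate medians of -0.78, -0.37 and 0.12. At an unadjusted limma p of 0.05 fga, fgg and rbp4 were negative, as were 8.43% of all genes. In replicate 3 fga stood at 0.43. The other measured liver markers had means of -0.53 for gc, -0.41 for fgb, 0.03 for ambp and 0.07 for tfa.

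Yolk syncytial layer markers (9 of 15 measured) had replicate medians of -0.55, 0.19 and 0.21. Among them apobb.1, an apolipoprotein B gene, stood at -1.80, -1.48 and -1.67 in replicates 1, 2 and 3 (mean -1.65 ± 0.16, SD, n = 3; adjusted p = 0.116, limma), the 5th lowest moderated statistic of 5904 genes and lower than that of any member. The apolipoprotein gene apoa1a was positive, at 1.35, 1.14 and 0.96 (mean 1.15 ± 0.20, SD, n = 3; adjusted p = 0.163, limma). Both were named after their values were seen. Replicate medians were 0.24, 0.32 and 0.03 for notochord sheath markers (8 of 16) and 0.01, 0.74 and 0.10 for cartilage markers (3 of 12). Of the 8 notochord markers, 3 were positive and 0 negative at an unadjusted limma p of 0.05, against 7.67% and 8.43% of all genes. The positive ones were shha, cav1 and cav3, and 4 of the 8 had a negative mean. These 4 were col9a2 at -0.00, matn4 at -0.09, epyc at -0.15 and the collagen gene col11a2 at -0.38, and tbxta had a mean of 0.17. The 2 measured genes of mucous and secretory skin cells (of 11 listed) differed in sign, agr2 at -1.16 ± 0.96 and icn at 1.01 ± 0.64 (SD, n = 3 each). None of the 17 listed exocrine pancreas markers was measured in all samples. General markers of embryonic tissues were present, 16 of 22, with replicate medians of -0.09, 0.15 and -0.38. The part of any of these tissues in the ratios of the folding genes was not tested.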

How the data were processed

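The authors deposited 1 table with a log2 ratio per array row and sample; the unit was read from the values, which are centred near 0 and reach -12.9. No source used here gives the background correction, the normalization, the rule for missing values or how dye swaps were joined. Per the labels' protocols, 2 µg of RNA per sample was labelled with Cy3 and Cy5 after linear amplification. Rows were matched to probes on a grid of 170 by 266 spots, a numbering inferred from these values. A gene's measured rows were averaged in each sample. The 5904 genes with a value in all 3 samples were fitted together (R 4.3.3, limma 3.58.1, functions lmFit and eBayes with an intercept alone, two-sided against 0), with Benjamini-Hochberg adjustment over all of them. The fit has 2 residual and 4.58 prior degrees of freedom. It was also run on simulated noise drawn alike for every sample. The spreads of the real samples differ, so that run is no check of the fit on them. Spot signals were not analysed here, and the number of samples limits the precision.

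The members and lists were chosen with earlier results of these data known. In each role, values by sample are given for up to 4 measured members with the largest moderated statistic and for every measured stress factor, and 3 genes are named per pathway list. Other members are given too. Control spots could not be marked. The alternatives were other scalings, centring, row rules, weights, moderation, numbering and each replicate left out.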

Additional observations from a re-analysis of the deposited data

How the results depend on the processing

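Leaving out replicate 1, 2 or 3 left 6 to 10 of the 12 folding genes negative at an unadjusted limma p of 0.05 (6 without replicate 2), against 9 with all samples, and their median lay between -1.48 and -0.80. Among the other members, 0 to 1 passed that p, against 1. The share of all genes at the unadjusted p is not given for the alternative fits of this section. Their counts at that p therefore cannot be set beside a background. Group medians then ran from 0.13 to 0.66 for stress factors and from -0.46 to 0.092 for the translocon group. The mean changed sign without 1 replicate for herpud1 (-0.22 to 0.019), atf4a (-0.044 to 0.66), sec62 (-0.58 to 0.092), ssr2 (-0.27 to 0.40), ssr4 (-0.22 to 0.26), spcs2 (-0.50 to 0.019), srp72 (-0.12 to 0.25), srprb (-0.16 to 0.20), kdelr2b (-0.33 to 0.23) and kdelr3 (-0.77 to 0.0087).

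Quantile normalization and equal spread brought 1 member, manf, past an adjusted p of 0.05 (0.0308 and 0.0279 in limma, against 0.119), where 28 and 43 of 5904 genes passed, against 1. Quantile normalization also brought 1 member row past it. Both scalings also brought 2 and 3 other chaperones and isomerases past it, and 1 translocation gene each, srpra; leaving out replicate 3 brought 1, p4ha1b, where 20 of 5963 genes passed. The ordinary statistic left 2 folding genes at the unadjusted p, and genes with every row measured left 5, since fewer genes qualify; there the translocon median was 0.076. Under the ordinary statistic cyp1a no longer passed (adjusted p = 0.334, against 0.00086 in limma). Small means changed sign for srprb after quantile normalization (0.0022). With array weights they did for atf4a (-0.14), ssr2 (-0.042), ssr4 (-0.082) and srp72 (-0.058), and with the position trend removed, chosen after seeing the data, for ssr2 (-0.020), ssr4 (-0.10), spcs1 (-0.0014, also the signal peptidase median) and srprb (0.10). The cause was not tested.

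With the row numbers as given, each gene takes other rows, and cyp1a had a mean of 0.68 (adjusted p = 0.288, limma). Folding genes then had a median of 0.29 with 1 negative at the unadjusted p, and 4 other members passed it. Medians were 0.31 for lectin chaperones, 0.72 for disulfide isomerases, -0.61 for stress factors, 0.35 for the translocon, -0.99 for signal peptidase, -0.69 for the signal recognition particle and 0.36 for oligosaccharyltransferase. Means of opposite sign were those of calr (0.27), calr3b (0.63), canx (0.31), pdia4 (0.24), pdia6 (0.79), creld2 (0.72), herpud1 (0.81), derl1 (-0.18), atf4b (-0.16), sec62 (0.78), spcs1 (-0.99), srp54 (0.94), srp72 (-1.0), dad1 (0.36), p4ha1b (-0.43), derl2 (0.088) and psat1 (-0.45). Outside this setting, 699 of 730 single-gene values kept their sign and their side of the threshold. The ordinary and robust statistics leave the ratios themselves unchanged, so no sign could change there. The count is thus no measure of how firm the values are.

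No paired analysis was possible because all samples form 1 group, with the contrast of exposed and control inside each ratio. Median centring, robust moderation, the median of rows, rows measured in all samples and genes measured in at least 2 samples changed no sign and no side of the threshold of the 53 single genes followed. The planned comparison of promoter motifs and protein ends was not run, because no sequences were used here.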
